A study of Mus musculus with 6 samples.

Results

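The genes described here encode the ligands and receptors of axon guidance, measured in the hippocampus of Ahr-KO and wild-type mice. Members were chosen by symbol. They are the genes whose names begin with Efna, Efnb, Epha, Ephb, Plxn or Unc5, or with Sema, Slit, Robo, Ntn or Nrp and a digit, together with Dcc and Draxin. The rule found 71 of the 22180 genes tested, through 74 probe sets, and for each gene the probe set with the highest mean signal was used. Of the 71, 68 belong to the guidance families. The remaining 3 share a prefix only (Plxna4os1, Unc50 and Unc5cl) and are described last. Ephb2 and Ntn5 also fit the names and were not analysed here.

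Growing axons read cues on and around other cells through a small set of receptor families. Ephrins are membrane-bound ligands of the Eph receptor tyrosine kinases, and cells that carry either can signal to each other on contact. Semaphorins, secreted or membrane-bound, act through plexins, with neuropilins as co-receptors for most secreted ones. Slits are secreted repellents read by Robo receptors, and netrins attract axons through Dcc or repel them with Unc5 receptors. In the hippocampus these proteins are known for mossy fibre targeting, dendritic spine shape, synapse number and the placing of new granule neurons.

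The samples were 3 Ahr-KO and 3 wild-type mice with 1 array each, labelled as hippocampus dissected from hemibrains. Ahr codes for a transcription factor that binds dioxins and tryptophan products, the aryl hydrocarbon receptor, and the series title ties it to neurogenesis, granule cell dendrites and synapses. The labels give neither the allele nor the strain, age or sex, and they name no treatment. Values are log2 signals, and differences were taken as Ahr-KO minus wild type, each with the standard error (SE) that limma gives. A gene was called where its p, adjusted by Benjamini and Hochberg over all genes, was under 0.05.

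Array medians over all probe sets lay between 5.79 and 5.85 log2. Ahr read 6.62, 6.91 and 6.74 in Ahr-KO and 7.68, 7.50 and 7.44 in wild type, without overlap (limma, unadjusted p = 4.33e-05, adjusted p = 0.320). The labels do not say whether this probe set reads a deleted or a kept part of Ahr. Hippocampal markers were present, with 7 of 8 dentate granule and 8 of 8 pyramidal neuron genes at or above 6.50 log2, the median of the genes tested. Choroid plexus markers (10 of 12 measured) were high on Ahr-KO array 1 and wild-type array 2, and their summed level ran from 10.05 to 13.42 log2 in Ahr-KO and from 10.05 to 12.92 in wild type. Oligodendrocyte markers (9 of 10 measured) ran from 12.79 to 13.29 in Ahr-KO, lowest on array 1, and from 13.14 to 13.18 in wild type. The summed level of the dentate granule markers ran from 12.27 to 12.35 in Ahr-KO and from 12.05 to 12.24 in wild type, without overlap. That sum is led by the brightest genes. The list's mean deviation from the 6-array mean did overlap, at 0.04, 0.01 and 0.13 in Ahr-KO and -0.19, 0.05 and -0.05 in wild type. At an unadjusted p under 0.05, 3 of 8 genes were higher, against 3.53% of all genes. The part of granule neurons in the differences given here was not tested. In tissue RNA, fewer cells of a type and less RNA per cell cannot be told apart.

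No guidance gene was called as different between genotypes. Past the adjusted threshold there were 0 of 71 members, against 0% of all genes (limma), and the lowest adjusted p among members was 0.770. At an unadjusted p under 0.05, 6 members were higher in Ahr-KO, against 3.53% of all genes, and 3 were lower, against 2.65%. Together these 9 are 12.7% of the members, against 6.18% of all genes. In a separate fit of genes at or above the median level, 6 of 57 members had such a p. That is 10.5%, against 7.08% of the genes in that fit. Of the 9, 8 are guidance genes. Draxin, Efna2, Efnb1, Ntn1 and Sema5a stood higher in Ahr-KO, and Epha3, Sema3d and Plxnb3 stood lower.

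The count of higher members was 3 without Ahr-KO array 2, 2 without Ahr-KO array 3, 3 without wild-type array 1 and 2 without wild-type array 3. The count of lower members was 1 without Ahr-KO array 1. In both directions, the share of members at an unadjusted p under 0.05 was 8.45% without Ahr-KO array 1, against 5.95% of all genes, and 8.45% against 7.22% without Ahr-KO array 2. It was 7.04% against 5.08% without Ahr-KO array 3 and 7.04% against 6.27% without wild-type array 1. It was 15.5% against 6.22% without wild-type array 2, and 5.63% against 5.07% without wild-type array 3. The members' share was thus close to that of all genes in some of these settings and further above it in others.

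The low p of single genes depended on the setting too. Draxin had an unadjusted p under 0.05 in all 17 alternatives that included it, Sema3d in 16 of 17 and Epha3 in 16 of 18. Efna2, Sema5a and Plxnb3 kept it in 14 of 18, Efnb1 in 13 of 18 and Ntn1 in 11 of 18.

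In 16 members the Ahr-KO and wild-type arrays did not overlap, which is 22.5%, against 11.9% of all genes. Among these, 10 were higher in Ahr-KO, against 6.18% of all genes, and 6 were lower, against 5.75%. Without wild-type array 2 the count was 29, or 40.8%, against 21.9% of all genes. The median difference of the 68 guidance genes was 0.03 log2, against 0.00 over all genes, with 35 higher and 33 lower means. Their median size of difference was 0.11 log2, against 0.07 over all genes, and the range was -0.36 to 0.43.

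**Figure D1:**
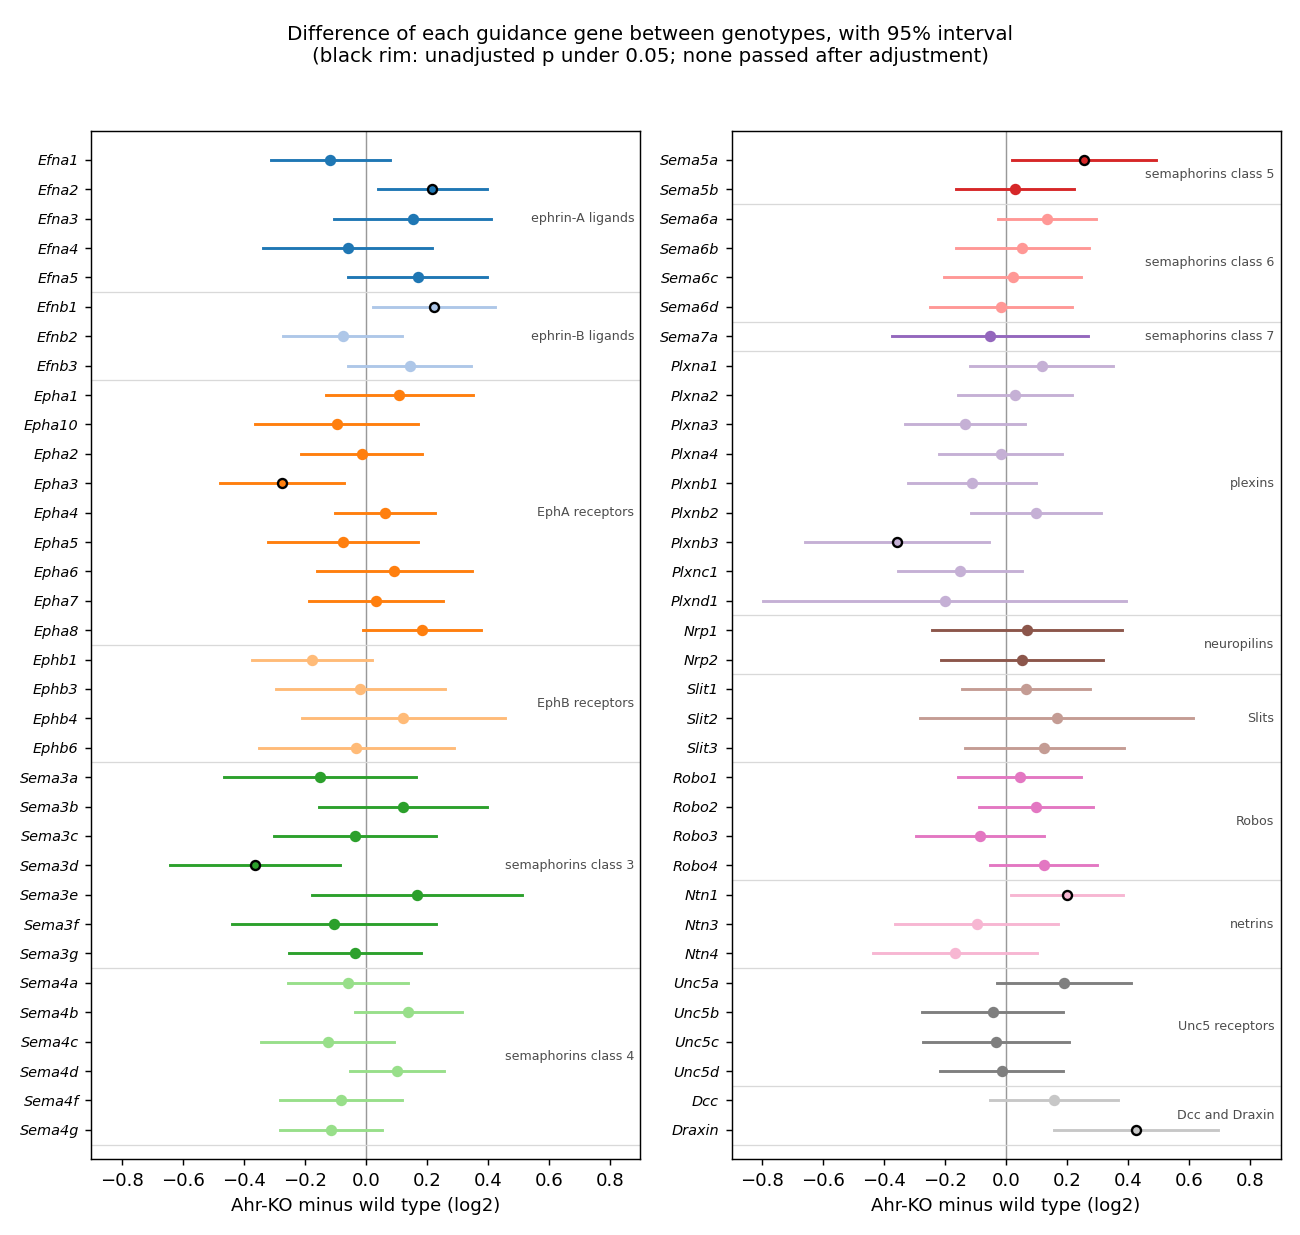
Difference between genotypes (Ahr-KO minus wild type, log2, horizontal axis) for each of the 68 guidance genes, grouped by family, with points for limma's estimate from 3 and 3 arrays and bars for its 95% interval. Points lie between -0.36 (Sema3d) and 0.43 (Draxin), and the 8 with a black rim had an unadjusted p under 0.05.

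Secreted and membrane-bound ligands held most of these lowest-p genes. Of 35 ligands 5 were higher and 1 was lower at an unadjusted p under 0.05, and of 33 receptors 0 were higher and 2 lower, against 3.53% of all genes higher and 2.65% lower. In both directions together these are 17.1% of the ligands and 6.06% of the receptors, so the receptors lay at the 6.18% of all genes. Whether ligands and receptors differ was not tested. The 4 stretches below are the 250 bases before the start of transcription, from the RefSeq table of assembly GRCm38.p6, written 5′ to 3′ on the gene's strand. They are shown because Draxin and Sema3d had the largest differences in either direction, and because Efnb1 and Sema5a were the members at unadjusted p under 0.05 whose stretch, of the 7 searched, held the core motif of the AHR-ARNT dimer, GCGTG. Capitals mark that motif, or CACGC where it lies on the other strand.
Draxin, chr4:148130699-148130948, minus strand: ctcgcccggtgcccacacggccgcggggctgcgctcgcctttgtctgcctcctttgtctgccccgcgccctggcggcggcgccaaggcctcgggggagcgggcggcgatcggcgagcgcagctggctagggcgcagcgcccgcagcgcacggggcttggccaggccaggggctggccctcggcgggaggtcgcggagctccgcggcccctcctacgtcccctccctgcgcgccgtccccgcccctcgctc
Efnb1, chrX:99135811-99136060, plus strand: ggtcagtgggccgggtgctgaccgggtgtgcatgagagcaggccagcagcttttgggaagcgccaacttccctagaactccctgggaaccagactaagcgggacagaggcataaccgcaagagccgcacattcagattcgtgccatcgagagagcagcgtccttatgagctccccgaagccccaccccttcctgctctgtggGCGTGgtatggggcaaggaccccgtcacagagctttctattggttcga
Sema5a, chr15:32244563-32244812, plus strand: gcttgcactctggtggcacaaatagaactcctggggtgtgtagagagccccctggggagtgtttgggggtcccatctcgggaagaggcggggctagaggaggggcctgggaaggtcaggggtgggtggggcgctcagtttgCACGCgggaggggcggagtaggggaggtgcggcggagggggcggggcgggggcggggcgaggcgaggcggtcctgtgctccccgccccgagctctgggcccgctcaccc
Sema3d, chr5:12382916-12383165, plus strand: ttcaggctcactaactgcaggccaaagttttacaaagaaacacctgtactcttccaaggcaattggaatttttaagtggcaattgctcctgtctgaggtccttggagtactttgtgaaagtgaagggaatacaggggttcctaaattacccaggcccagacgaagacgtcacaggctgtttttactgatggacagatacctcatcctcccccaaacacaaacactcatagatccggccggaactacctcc
In Efnb1 the motif begins at position -48 from the start site and in Sema5a at -109. Draxin and Sema3d held no match in these letters, nor did Epha3, Efna2 and Plxnb3, whose stretches were searched but not printed. Ntn1 was not searched here. Among all guidance genes with an entry, 25 of 74 stretches (58 genes) held GCGTG on either strand, or 33.8%, against 34.2% of the stretches of all genes tested. A match is a description of the letters and was not tested for binding.

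Draxin, a secreted repellent that binds netrin receptors, had the lowest p of all members. It read 6.25, 6.53 and 6.27 log2 in Ahr-KO and 5.84, 6.13 and 5.79 in wild type. All 3 Ahr-KO arrays lay above all 3 wild-type arrays, with wild-type array 2 nearest. The means were 6.35 ± 0.16 and 5.92 ± 0.18 (SD, n = 3 each). The difference was 0.43 ± 0.12 (SE), or 1.34-fold, with a 95% interval of 0.16 to 0.70 (limma, unadjusted p = 0.00628, adjusted p = 0.770). The signal was under the array median of the genes tested in both genotypes. The difference kept its sign in all 17 alternatives that included the gene, between 0.34 and 0.58.

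Ntn1, the netrin that attracts axons through Dcc, was higher in Ahr-KO by less. It read 6.91, 7.03 and 6.86 in Ahr-KO and 6.80, 6.66 and 6.74 in wild type, without overlap. The difference was 0.20 ± 0.08 (limma, unadjusted p = 0.0356, adjusted p = 0.797). The other netrins had lower means in Ahr-KO, Ntn3 by -0.10 (95% interval -0.36 to 0.17) and Ntn4, a laminin-related netrin, by -0.17 (-0.44 to 0.10). In both, the genotypes overlapped, with the lowest value of Ntn4, 5.997, on Ahr-KO array 1.

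Dcc, the attractive netrin receptor, read 9.62, 9.40 and 9.56 in Ahr-KO and 9.28, 9.49 and 9.34 in wild type. The groups overlapped through Ahr-KO array 2 and wild-type array 2, and the difference of 0.16 ± 0.09 did not pass (limma, adjusted p = 0.829). Unc5a, a repulsive netrin receptor, read 10.20, 10.08 and 10.11 in Ahr-KO and 10.02, 10.05 and 9.75 in wild type. The values did not overlap, although Ahr-KO array 2 and wild-type array 2 lay close together. Its difference was 0.19 ± 0.10 (limma, adjusted p = 0.817), and 0.10 without wild-type array 3, the lowest. Unc5b differed by -0.04 ± 0.10, and Unc5c and Unc5d by -0.03 and -0.01.

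**Figure D2:**
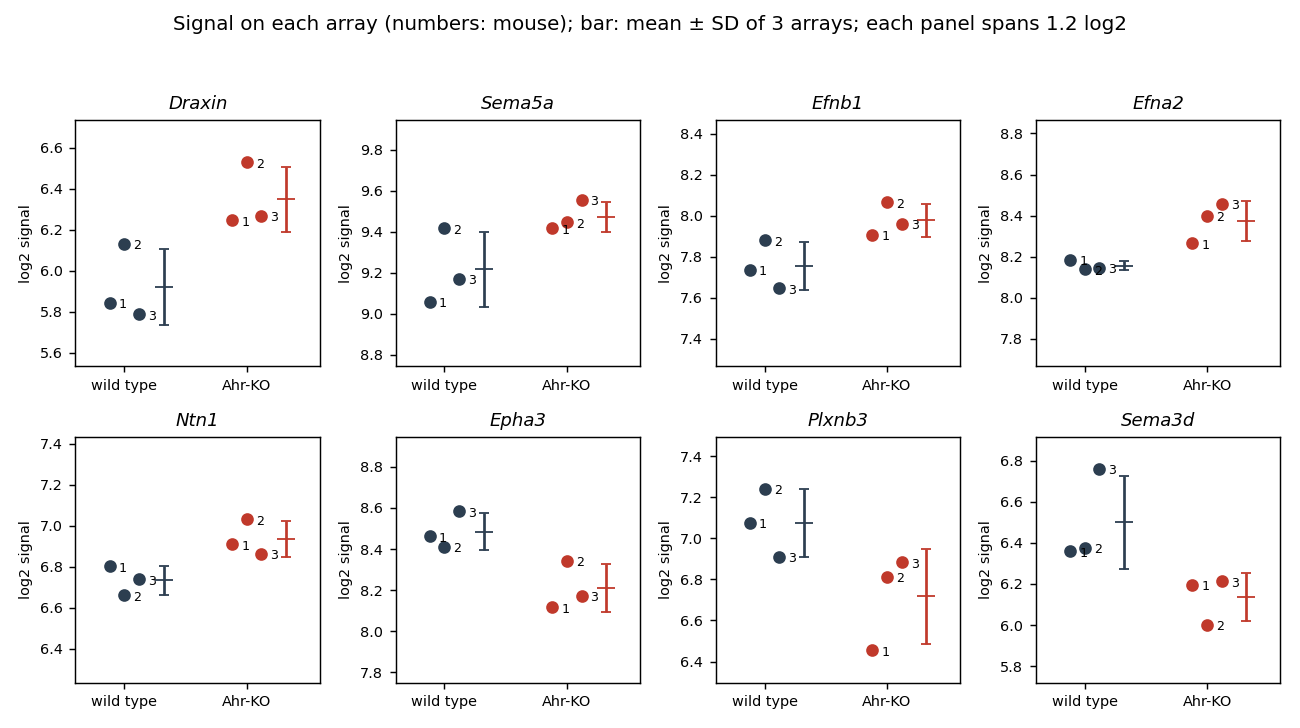
Log2 signal (vertical axis, each panel spanning 1.2 log2) of the 8 guidance genes with an unadjusted p under 0.05, with points for single arrays, numbers for the mouse and bars for the mean ± SD of 3 arrays. The genotypes do not overlap in 7 panels and meet in Sema5a, where wild-type array 2 reads 9.42.

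The ephrins included a gene of each class that was higher in Ahr-KO. Efna2, a ligand held to the membrane by a lipid anchor, read 8.27, 8.40 and 8.46 in Ahr-KO and 8.18, 8.14 and 8.15 in wild type. The wild-type values spanned little, and all Ahr-KO values lay above them. The means were 8.37 ± 0.10 and 8.16 ± 0.02 (SD, n = 3 each), and the difference was 0.22 ± 0.08 (limma, unadjusted p = 0.0221, adjusted p = 0.788). Efnb1, a transmembrane ephrin of the X chromosome, read 7.91, 8.07 and 7.96 in Ahr-KO and 7.74, 7.88 and 7.65 in wild type. These groups did not overlap, with a gap of less than the spread within either, and the difference was 0.22 ± 0.09 (limma, unadjusted p = 0.0325, adjusted p = 0.797).

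The other ephrins had no unadjusted p under 0.05, and their genotypes overlapped. Efna3, whose protein on astrocytes signals to Epha4 on hippocampal spines, differed by 0.15 ± 0.11. That value was 0.02 without wild-type array 3, where Efna3 read 9.76 against 10.14 and 10.17 on the other wild-type arrays. Efna5 differed by 0.17 ± 0.10, Efnb3 by 0.14 ± 0.09, Efnb2 by -0.08 ± 0.09 and Efna4 by -0.06 ± 0.12. The family medians were 0.15 for the 5 ephrin-A genes and 0.14 for the 3 ephrin-B genes.

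Epha3, a receptor tyrosine kinase for ephrin-A ligands, was the Eph gene with the lowest p. It read 8.12, 8.34 and 8.17 in Ahr-KO and 8.46, 8.41 and 8.58 in wild type, so that every Ahr-KO array lay below every wild-type array. The means were 8.21 ± 0.12 and 8.49 ± 0.09 (SD, n = 3 each), a difference of -0.27 ± 0.09 (limma, unadjusted p = 0.0143, adjusted p = 0.770). It stayed between -0.34 and -0.23 in 18 alternatives. Epha8 stood 0.18 ± 0.08 higher without overlap (limma, adjusted p = 0.814), at a signal under the median of the genes tested.

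No other Eph receptor had an unadjusted p under 0.05. Epha4, which restrains dendritic spines, read between 11.46 and 11.50 in Ahr-KO and between 11.36 and 11.49 in wild type. Its difference was 0.06 (95% interval -0.10 to 0.23). Ephb1, a receptor for ephrin-B at spines and in dentate progenitors, read 8.33, 8.49 and 8.41 in Ahr-KO and 8.60, 8.47 and 8.69 in wild type. These overlapped at wild-type array 2, with a difference of -0.18 ± 0.09 (limma, unadjusted p = 0.0729, adjusted p = 0.817). Without wild-type array 2 it was -0.24, at an unadjusted p of 0.0347 by limma, and the gene's second probe set differed by -0.09. Ephb4 and the kinase-dead Ephb6 differed by 0.12 ± 0.15 and -0.03 ± 0.14, and Epha1 by 0.11 ± 0.11. Over 9 EphA and 4 EphB genes the medians were 0.03 and -0.02.

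Among 20 semaphorins 1 stood higher and 1 lower at an unadjusted p under 0.05, or 10%, against 6.18% of all genes. Sema3d, a secreted semaphorin that binds neuropilins, read 6.20, 6.002 and 6.21 in Ahr-KO and 6.36, 6.38 and 6.76 in wild type. All Ahr-KO arrays lay lower, and wild-type array 3 stood above the rest. The 6-array mean of Sema3d, 6.32, was under the median of the genes tested, 6.50. The means were 6.14 ± 0.12 and 6.50 ± 0.23 (SD, n = 3 each), a difference of -0.36 ± 0.12, or 1.29-fold (limma, unadjusted p = 0.0169, adjusted p = 0.770). Without wild-type array 3 it was -0.23.

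Sema5a, a transmembrane semaphorin that limits excitatory synapses on granule cells through plexin-A2, read 9.42, 9.45 and 9.55 in Ahr-KO and 9.06, 9.42 and 9.17 in wild type. Wild-type array 2 fell among the Ahr-KO values, and the other 2 lay lower. The difference was 0.26 ± 0.10 (limma, unadjusted p = 0.0368, adjusted p = 0.799). It was 0.18 without wild-type array 1 and 0.36 without wild-type array 2. Plxna2, the plexin-A2 gene, differed by 0.03 ± 0.08 and Sema5b by 0.03 ± 0.09.

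Small separations with tight replicates were seen among class 4 and class 6 semaphorins. Sema4d, a ligand of plexin-B1, read 8.03, 8.02 and 7.998 in Ahr-KO and 7.93, 7.92 and 7.89 in wild type. Its pooled SD within a genotype, 0.02, was the smallest of the 68, and its difference of 0.10 ± 0.07 carries the larger SE that limma's shared variance gives (limma, adjusted p = 0.842). Sema6a, which steers mossy fibres with plexin-A2 and plexin-A4, read 9.14, 9.20 and 9.19 in Ahr-KO and 8.998, 9.06 and 9.08 in wild type. That difference, 0.13 ± 0.07, was without overlap too and did not pass (limma, adjusted p = 0.817). Sema4b (0.14) was higher and Sema4g (-0.11) lower without overlap.

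The rest of the semaphorins overlapped between genotypes. Sema4c differed by -0.13 ± 0.10 and Sema4a by -0.06 ± 0.09. Sema3a, a classical repellent, differed by -0.15 ± 0.14, and Sema3e, the ligand of plexin-D1, by 0.17 ± 0.15. Both values moved when single wild-type arrays were left out. Sema3a was -0.0357 without wild-type array 3 and -0.30 without wild-type array 2, and Sema3e was 0.0188 without wild-type array 1 and 0.35 without wild-type array 2. Sema6b, Sema6c and the lipid-anchored Sema7a differed by 0.05, 0.02 and -0.05. Class medians were -0.04 for the 7 class 3 genes, -0.07 for the 6 class 4 genes, 0.14 for the 2 class 5 genes and 0.04 for the 4 class 6 genes.

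Plexins, the semaphorin receptors, had lower means in Ahr-KO for 6 of 9 genes, with a median of -0.11. Plxnb3, a plexin made mainly by oligodendrocyte lineage cells, read 6.46, 6.81 and 6.88 in Ahr-KO and 7.07, 7.24 and 6.91 in wild type. The groups did not overlap, but Ahr-KO array 3 and wild-type array 3 were nearly equal and Ahr-KO array 1 was far below the others. The difference was -0.36 ± 0.13, or 1.28-fold (limma, unadjusted p = 0.0250, adjusted p = 0.797). It was -0.23 without Ahr-KO array 1 and -0.14 without the 2 arrays high in choroid plexus genes. Ahr-KO array 1 was also the lowest for oligodendrocyte markers, where the list's mean stood -0.36 from its 6-array mean, against 0.02 to 0.12 on the other arrays. The part of those cells in the Plxnb3 difference was not tested.

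Plxna3 read 7.10, 7.10 and 7.09 in Ahr-KO and 7.39, 7.14 and 7.17 in wild type, lower without overlap by -0.13 ± 0.09 (limma, adjusted p = 0.839). Plxnc1, the receptor of Sema7a, differed by -0.15 ± 0.09 and Plxna4 by -0.02 ± 0.09. The neuropilins Nrp1 and Nrp2, co-receptors for class 3 semaphorins, differed by 0.07 ± 0.14 and 0.05 ± 0.12, less than their SD within a genotype.

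Slits and Robos had mostly higher means in Ahr-KO, and none passed the test. Slit2 read 9.42, 8.76 and 9.03 in Ahr-KO and 8.67, 9.26 and 8.78 in wild type. The genotypes overlapped widely, and 1 array of each, Ahr-KO array 1 and wild-type array 2, read highest. Slit1, Slit2 and Slit3 differed by 0.07 ± 0.09, 0.17 ± 0.20 and 0.13 ± 0.11. Robo4, the Robo of endothelial cells, read 6.42, 6.55 and 6.37 in Ahr-KO and between 6.32 and 6.33 in wild type. Its mean was under the median of the genes tested in both genotypes. That difference of 0.12 ± 0.08 was without overlap. Endothelial markers read -0.01, 0.03 and 0.12 from their 6-array mean in Ahr-KO and -0.05, -0.08 and -0.01 in wild type. Those markers went both ways, with a median difference of 0.04. At an unadjusted p under 0.05, 2 of 7 were higher, against 3.53% of all genes, and 0 lower, against 2.65%, while Cldn5 differed by -0.23 ± 0.10. The part of endothelial cells in the Robo4 difference was not tested. Robo2, a receptor for Slits on neurons, differed by 0.10 ± 0.08 and Robo3, known from commissural axons, by -0.09 ± 0.09.

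**Figure D3:**
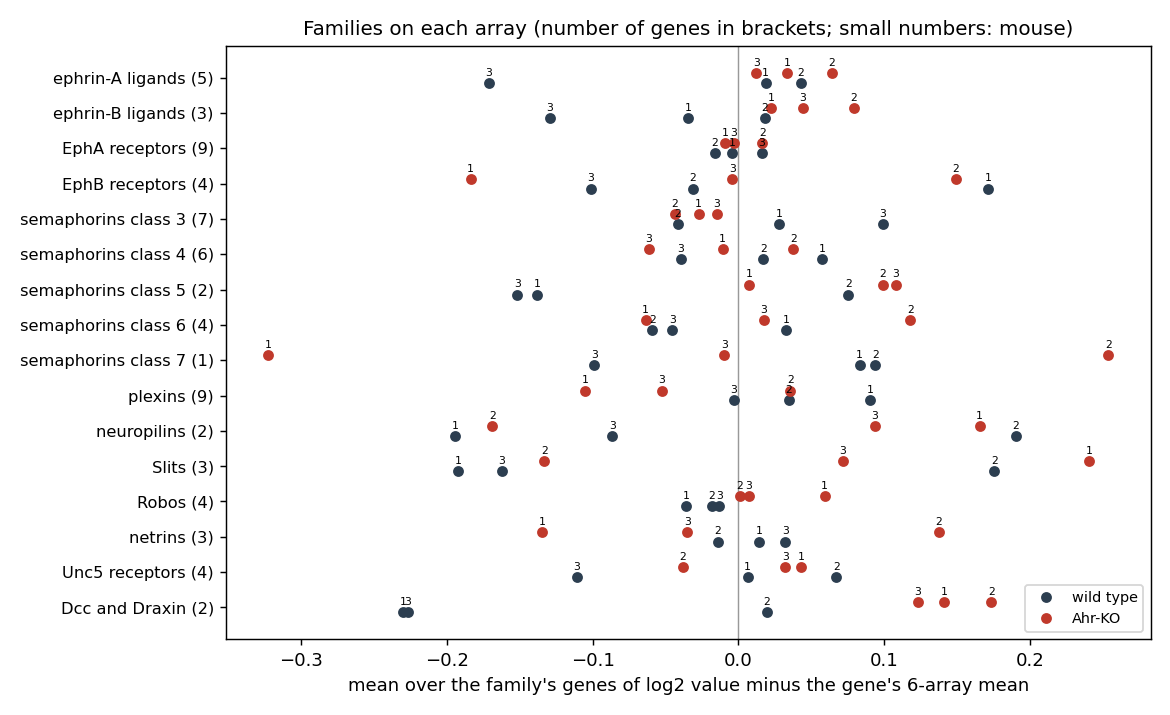
Mean deviation of each of 16 gene families on each array (log2 value minus the gene's 6-array mean, averaged over the family, horizontal axis), with red points for Ahr-KO, dark points for wild type and small numbers for the mouse. The genotypes do not overlap for ephrin-B ligands, Robos and the pair of Dcc and Draxin, while Slits and neuropilins spread as widely within a genotype as between them.

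By family, the mean deviation on each array separated the genotypes for the ephrin-B ligands, the Robos and the pair of Dcc and Draxin. For Dcc and Draxin it was 0.14, 0.17 and 0.12 in Ahr-KO and -0.23, 0.02 and -0.23 in wild type. For the ephrin-B ligands it was 0.02, 0.08 and 0.04 in Ahr-KO and -0.03, 0.02 and -0.13 in wild type, so that the nearest arrays were almost level. For the Robos it stayed within 0.06 of 0 on every array. Taken singly, only Draxin, Efnb1 and Robo4 of these genes did not overlap between genotypes. Over all genes, 11.9% did not overlap. The members are not replicates, and no test was made of these means.

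The guidance genes also varied among mice of 1 genotype, with a median pooled SD of 0.12 log2, against 0.11 over all genes. After each gene's genotype means were subtracted, 1 axis held 54.4% of the remaining variance of the 68 genes. The same step over all genes gave 37.1%, with the arrays of each genotype in the same order. Genes were not scaled, so those with a wide spread, above all Plxnd1 and Slit2, weigh most on the members' axis. Whether the shares differ was not tested. On the members' axis the 3 Ahr-KO arrays stood at 0.45, -0.56 and 0.11 and the 3 wild-type arrays at -0.45, 0.52 and -0.07.

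Slit2, Nrp1, Sema3e, Nrp2 and Slit3 lay at one end of this axis, and Plxnd1, Sema3f, Ephb4, Sema3c and Sema3a at the other. These genes were chosen after their values were seen. Plxnd1, a plexin known from blood vessels and striatal and cortical circuits, had the widest spread of the 68. It read 7.52, 8.30 and 7.69 in Ahr-KO and 8.45, 7.51 and 8.15 in wild type, with a pooled SD of 0.44 and a difference of -0.20 ± 0.26. Nrp1 ran the other way, at 9.66, 9.27 and 9.56 in Ahr-KO and 9.22, 9.65 and 9.41 in wild type.

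The neocortex markers ordered the arrays of each genotype as this axis does, in reverse, and so did the microglia markers. Microglia markers (5 of 6 measured) stood at -0.15, 0.17 and -0.02 in Ahr-KO and 0.0431, -0.0844 and 0.0413 in wild type. In wild type, arrays 1 and 3 of the microglia markers were nearly level, so their order there is weak. From their genotype means, neocortex markers (6 of 6 measured) stood at -0.19, 0.30 and -0.11 in Ahr-KO and 0.23, -0.28 and 0.05 in wild type, the same order of arrays as Plxnd1. Their summed level ran from 11.32 to 11.60 log2 in Ahr-KO and from 11.26 to 11.60 in wild type. Choroid plexus markers stood at 1.18, -0.58 and -0.60 and at -0.47, 0.84 and -0.37, high on the same 2 arrays as Slit2, with Ahr-KO array 3 rather than array 2 lowest. Oligodendrocyte markers, at -0.32, 0.15 and 0.16 and at 0.03, -0.0014 and -0.03, did not follow the axis in both genotypes. The part of neighbouring tissue in the spread of the guidance genes was not tested.

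**Figure D4:**
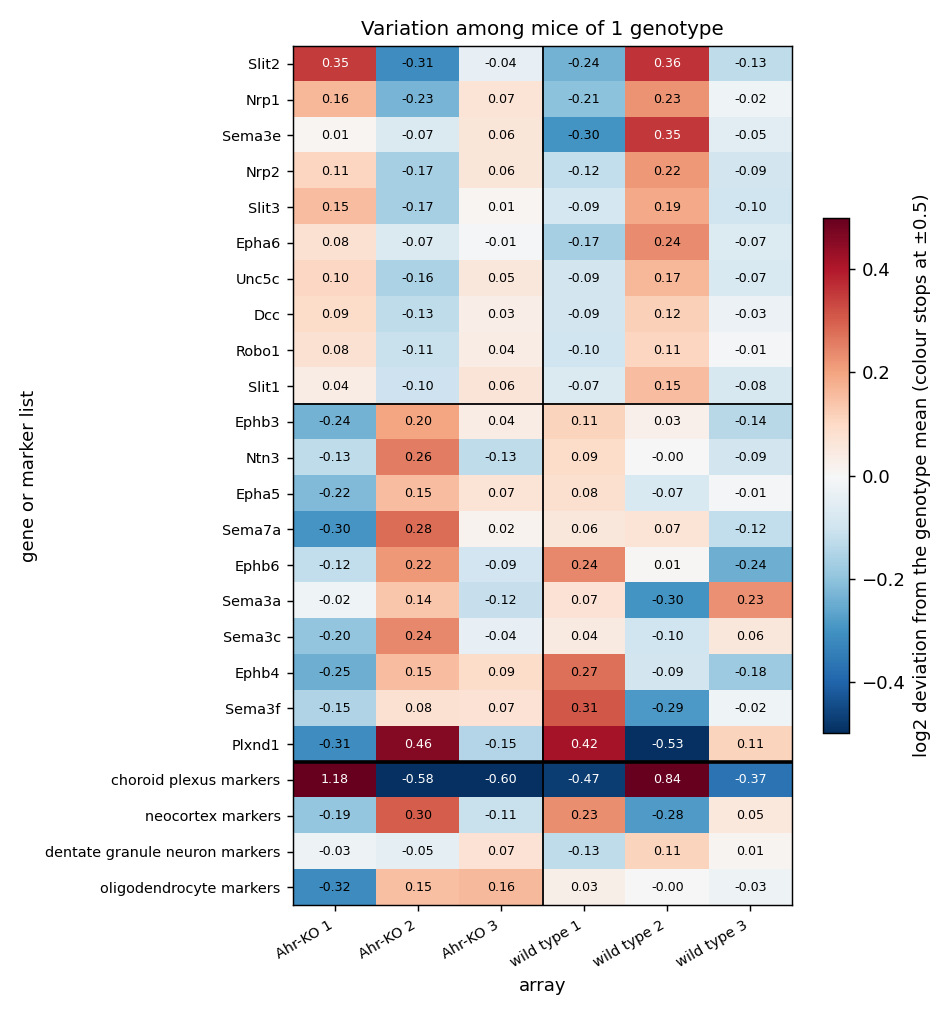
Log2 deviation from the genotype mean on each of the 6 arrays for the 10 guidance genes at either end of the within-genotype axis and for 4 marker lists, printed in each cell and coloured up to 0.5. Slit2 and Nrp1 are high on Ahr-KO array 1 and wild-type array 2, where Plxnd1 and the neocortex markers are low.

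A wider list of co-receptors, adaptors, small GTPase regulators and cytoskeletal effectors of these pathways, chosen by role, had 74 of 80 entries measured. Of these, 4 had an unadjusted p under 0.05, with 1 higher in Ahr-KO and 3 lower, 5.41% of the list against 6.18% of all genes, and 0 passed the adjusted threshold. Mical1, an oxidase that takes apart actin below plexins, differed by -0.22 ± 0.08. Pick1, a PDZ protein that binds Eph receptors and ephrin-B, differed by -0.20 ± 0.08. Limk2, a kinase that inactivates cofilin, differed by -0.19 ± 0.07. Crmp1, a microtubule-linked mediator of Sema3a signals, was higher by 0.18 ± 0.08, and Ablim3 and the chemokine Cxcl12 by 0.15 ± 0.08 and 0.14 ± 0.07. Mical1, Pick1, Limk2, Crmp1, Ablim3 and Cxcl12 did not overlap between genotypes. Over the list, 10 genes did not, or 13.5%, against 11.9% of all genes. The median over the list was 0.00 log2.

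The remaining 21 guidance genes, among them the Plxna2, Plxnd1, Unc5c and Unc5d already given, lay between -0.20 and 0.12, with 7 higher and 14 lower means and unadjusted p of 0.205 or more. They are Efna1, Epha10, Epha2, Epha5, Epha6, Epha7, Ephb3, Sema3b, Sema3c, Sema3f, Sema3g, Sema4f, Sema6d, Plxna1, Plxnb1, Plxnb2 and Robo1 in addition. The second probe set of Plxna1 differed by 0.11, near the 0.12 of the one used, and that of Plxnb1 by 0.10 against -0.11.

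Of the 3 genes that share only a prefix, Plxna4os1, a transcript named as opposite to Plxna4, read 5.27, 5.82 and 5.49 in Ahr-KO and 5.09, 5.09 and 5.34 in wild type. The groups overlapped, the difference was 0.35 ± 0.14 (limma, unadjusted p = 0.0355, adjusted p = 0.797), and it was 0.21 without Ahr-KO array 2. Plxna4 itself differed by -0.02. Unc50, a Golgi protein unrelated to netrin receptors, was lower without overlap by -0.09 ± 0.07, and Unc5cl, a death-domain protein, differed by 0.11 ± 0.08.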

How the data were processed

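Per the labels' protocols, Trizol was used to isolate hippocampal RNA and the WT PLUS kit to label it, with 1 array for each mouse. The authors deposited log2 signals for every probe set. Per the submitters' processing notes the tools were Affymetrix Expression Console and RMA, with no version. RMA quantile-normalizes the arrays together, which removes overall shifts between arrays and compresses differences at low signal. No annotation or build was stated.

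Of 41345 rows, 23521 had 1 gene symbol, 1814 several and 16010 none; symbols were updated through Entrez IDs (23328 matched). The brightest probe set of each gene was kept, giving 22180 genes with no filter on dim signals.

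The test between genotypes was that of limma 3.58.1 under R 4.3.3 (lmFit, then eBayes without trend, two-sided, Benjamini-Hochberg over all genes). It was checked on simulated data with independent errors and with differences larger than any of the members. That check does not cover differences of the members' size. The fit had 4 residual and 4.33 prior degrees of freedom. With 3 against 3 arrays an exact permutation test cannot reach the threshold, so none is given, and the number of arrays limits the precision. Values of different probe sets depend on their probes and were not ranked as amounts of RNA.

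Members, families, lists, alternatives and the 2 arrays left out together were chosen with earlier results of these data known. Given by value are, in each family, the genes with the highest and lowest signal, the 2 lowest unadjusted p, every gene at unadjusted p under 0.05 or without overlap, families of up to 3 whole, and the 3 genes per direction with the lowest p in the wider list. Promoter stretches came from RefSeq (GRCm38.p6). Marker lists of 12 cell types and tissues were measured. They gave at most 3 genes at unadjusted p under 0.05 in a direction (dentate granule neurons, 3 higher of 8, against 3.53% of all genes). Past the adjusted threshold there were 0. Alternatives covered the variance model, array weights, normalization, filters, probe set rules, a replicate block, left-out arrays and a choroid plexus covariate. Figures were drawn with matplotlib 3.10.9.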

Additional observations from a re-analysis of the deposited data

How the results depend on the processing

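No member passed the adjusted threshold in any of the 18 alternatives. The 8 guidance genes at unadjusted p under 0.05 kept their sign in every alternative that included them, while their unadjusted p stayed under 0.05 in 11 of 18 (Ntn1) to all 17 (Draxin). Over all genes 2 passed where limma's variance prior followed signal intensity. Leaving out 1 array gave 2 to 7 higher and 1 to 4 lower members at unadjusted p under 0.05, and 19 to 29 without overlap. Over all genes these settings gave 5.07% to 7.22% at unadjusted p under 0.05 and 19.7% to 24.4% without overlap. Without the 2 arrays high in choroid plexus genes 36 members, or 50.7%, did not overlap, against 34.6% of all genes. Same-numbered mice of the 2 genotypes correlated at -0.15, -0.22 and 0.05 in their deviations. These values cannot decide whether the numbers pair the mice. The main within-genotype axis over all genes ran opposite ways on the 2 arrays numbered 1 and on the 2 numbered 2. Whether mice of the same number were handled together is not known. With the number as a replicate block 5 members were higher and 3 lower.

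With 1 array left out, family medians lay at 0.0235 to 0.20 for ephrin-A, 0.0786 to 0.20 for ephrin-B, 0.0038 to 0.0875 for EphA, -0.14 to -0.0133 for class 3 semaphorins, -0.10 to -0.0086 for class 4, 0.10 to 0.22 for class 5, -0.13 to -0.0293 for plexins, 0.0447 to 0.0849 for Robos, -0.21 to -0.0325 for netrins, 0.25 to 0.37 for Dcc and Draxin and 0.0555 to 0.17 for the prefix matches. Without the 2 choroid plexus arrays they were 0.21 for ephrin-B, 0.0903 for EphA, 0.25 for class 5 and -0.0393 for plexins. Among genes at or above the median level they were -0.0205 for EphA, 0.0517 for netrins, 0.16 for Dcc and Draxin and -0.0897 for the prefix matches. The EphA median was 0.0094 once the dimmest genes were left out, and the plexin median -0.0178 with the mean of probe sets. These filters test fewer genes and the left-out settings fewer arrays.

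Of the genes given by value, 13 changed sign in at least 1 setting. With 1 array left out the ranges were -0.17 to 0.0112 for Efna4, -0.15 to 0.0883 for Ephb6, -0.11 to 0.0019 for Sema4a, -0.0279 to 0.0762 for Sema5b, -0.0089 to 0.14 for Sema6b, -0.0435 to 0.10 for Sema6c, -0.19 to 0.096 for Sema7a, -0.0809 to 0.059 for Plxna4, -0.0346 to 0.18 for Nrp1, -0.009 to 0.16 for Nrp2, -0.0083 to 0.35 for Slit2, -0.13 to 0.0002 for Robo3 and -0.0977 to 0.0574 for Unc5b. Without the 2 choroid plexus arrays the differences were 0.0332 for Ephb6, 0.13 for Sema7a, 0.0644 for Plxna4 and 0.0781 for Unc5b. The cause was not tested.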
